A study of Mus musculus with 40 samples.

Results

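The duodenal transcriptomes of mice given hexavalent chromium, Cr(VI), were compared with those of mice given the higher dose of the fungicide folpet. All libraries carrying either exposure label were taken, 7 of Cr(VI) and 7 of folpet, 14 of the 40 libraries of the series. All animals were male wildtype B6C3F1 mice, and exposure lasted 28 days. Cr(VI) was supplied at 180 ppm in the drinking water and folpet at 16000 ppm in the diet, so that the route and the dose differed as well as the agent. The 5 control libraries and the 7 libraries at each of captan 6000 ppm, captan 12000 ppm and folpet 6000 ppm entered the same statistical fit. The labels give no age and do not say whether the libraries of a group came from separate mice, and the p-values therefore rest on the spread among libraries, part of which may be technical. The libraries are TempO-Seq libraries from formalin-fixed, paraffin-embedded duodenum scraped off slides; this assay ligates neighbouring probes on their target transcript and counts the ligated products by sequencing. A comparison between these exposures shows which transcripts differ between 2 agents that reach the same stretch of intestine.

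Cr(VI) is a soluble oxidising form of chromium that cells take up through anion channels and reduce inside the cell. Folpet is a chlorinated thiophthalimide fungicide that reacts quickly with thiol groups such as those of glutathione and breaks down in the gut. Cells answer thiol-reactive and oxidising compounds in part through the transcription factor NRF2, which is held back by KEAP1 and, when released, binds antioxidant response elements of genes for glutathione synthesis, conjugation, quinone reduction and NADPH supply. The duodenal villus is covered by absorptive enterocytes, which are renewed from dividing crypt cells and lie on a core of matrix, vessels and macrophages.

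Total counts were 3787561 to 7904819 per library with Cr(VI) and 4631632 to 6128206 with folpet. The 7 enterocyte markers in the table were detected in both groups, with summed levels of 64930 to 83928 CPM (counts scaled to a common library size by the trimmed mean of M-values, TMM) with Cr(VI) and 72866 to 95178 with folpet, and no marker of Brunner's glands is among the probes. Pancreatic acinar transcripts made up 53.2% ± 25.1 (SD, n = 7) of all counts with Cr(VI) and 26.3% ± 10.7 (SD, n = 7) with folpet (2-sided exact permutation p = 0.0280, and 0.0664 after Benjamini-Hochberg adjustment over 3 library measures). Cr(VI) replicates 2, 3, 4 and 7 were above 50% and replicate 5 was at 4.92%, whereas no folpet library was above 44.8%. Because the scaling sets the bulk of probes level, the CPM values of a library rich in acinar RNA can sum to a larger total than those of other libraries. Where calls were lost without the libraries above 50%, or with the acinar share as a covariate, this is given beside the gene or list. Without the libraries above 50%, only Cr(VI) replicates 1, 5 and 6 remain against all 7 folpet libraries, so that fit has less power. Whether a call was lost there through fewer libraries or through acinar RNA was not tested.

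Of 2541 probes tested with edgeR's quasi-likelihood test, 186 passed a Benjamini-Hochberg adjusted p of 0.05 (7.32%). Levels were lower with Cr(VI) for 136 probes (5.35%) and higher for 50 (1.97%). The split was 103 lower and 77 higher with DESeq2's size factors, 122 and 93 with DESeq2's own test, and 62 and 4 with library totals alone, a scaling that moved the median of all probes to -0.27 on the log2 scale. A difference of more than 2 on the log2 scale was seen in 22 of the 136 lower probes and in 7 of the 50 higher ones. The median log2 fold change of Cr(VI) minus folpet was -0.74 among the lower probes and 1.05 among the higher ones. Against the 5 controls, which the comparisons of both groups share, 151 probes passed with Cr(VI) (5.94%; 2.95% higher and 2.99% lower) and 320 with folpet (12.6%; 7.91% higher and 4.68% lower). The probes lower with Cr(VI) had a median log2 fold change of -0.12 with Cr(VI) and 0.69 with folpet. For the probes higher with Cr(VI), the medians were 0.22 with Cr(VI) and -0.82 with folpet. The libraries of the 2 groups did not overlap for 114 probes (4.49%), of which 97 were called.

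**Figure D1:**
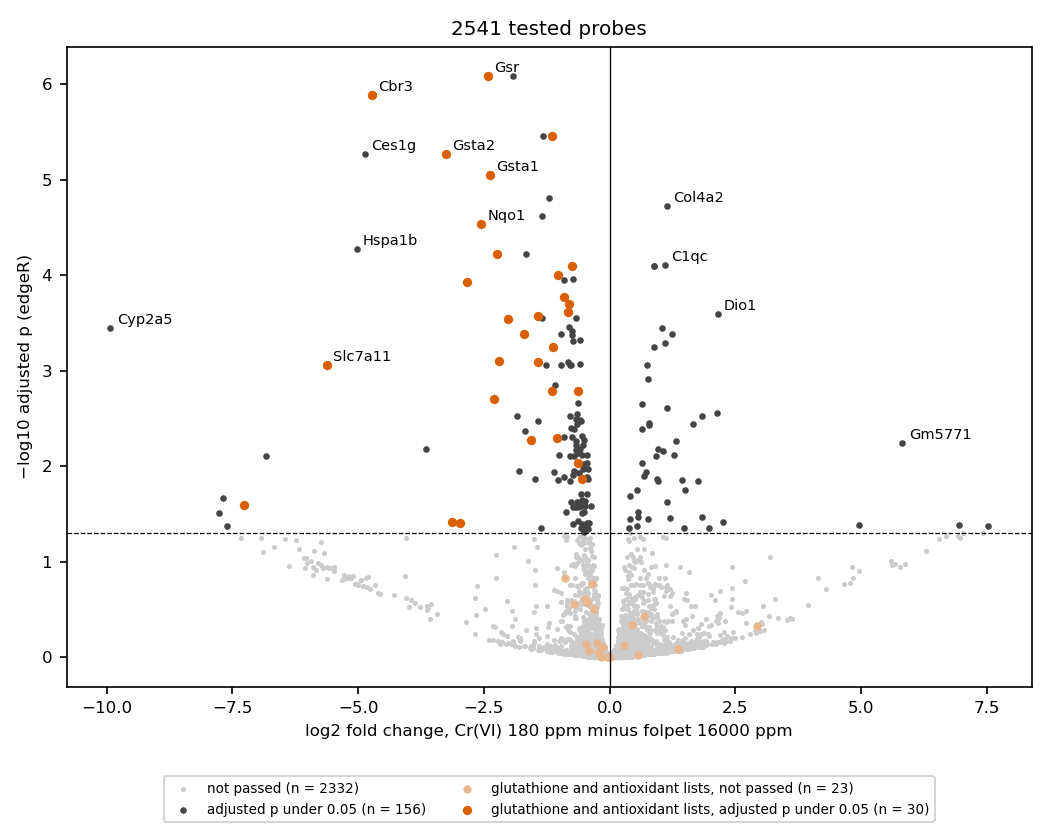
Each of the 2541 tested probes is a point, with the log2 fold change of Cr(VI) 180 ppm minus folpet 16000 ppm on the x axis and -log10 of the edgeR adjusted p on the y axis, and the dashed line marks an adjusted p of 0.05. Orange points belong to the 5 gene lists for glutathione and antioxidant enzymes, and all of their 30 called probes lie to the left of 0, with Gsr and Cbr3 at the top.

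Counting 1 probe per gene, 135 of 2328 genes were lower with Cr(VI) (5.8%), 47 were higher (2.02%), together 7.82%, and the median log2 difference was 0.00. These are the values against which the gene lists below are set, and lists are described by their counts and medians only. Members of some families, among them the glutathione transferases, Cyp2 enzymes, heat shock proteins and trypsins, have near-identical copies that a probe may detect together, so calls there are uncertain as single genes.

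Glutathione transferases, which couple glutathione to electrophiles, were lower with Cr(VI) in 7 of 11 tested members and higher in none, with a list median of -1.56. Gsta1, an alpha-class enzyme abundant in small intestine, ranged from 4688 to 9157 CPM with Cr(VI) (median 7067) and from 24859.5 to 41660.3 with folpet (median 37857). No Cr(VI) library reached the lowest folpet library, replicate 2, and the difference was 5.2-fold (log2 fold change -2.38 ± 0.34 (SE), adjusted p = 8.87e-06). Gsta2, a close relative, ranged from 237 to 729 CPM with Cr(VI) (median 442) and from 2888 to 5693 with folpet (median 4579) (log2 fold change -3.26 ± 0.44 (SE), adjusted p = 5.41e-06). The groups were again apart, and folpet replicate 2 was again the lowest of its group. Gm3776, another alpha-class gene, ranged from 4276 to 9566 CPM with Cr(VI) (median 6665) and from 21633 to 40699 with folpet (median 32613) (log2 fold change -2.25 ± 0.36 (SE), adjusted p = 6.06e-05). Gstp1, the pi-class enzyme, differed less at 2.04-fold, ranging from 6389 to 8584 CPM with Cr(VI) (median 7286) and from 12259 to 17384 with folpet (median 15542), still without overlap (log2 fold change -1.03 ± 0.18 (SE), adjusted p = 9.90e-05). The mu-class genes Gstm3 and Gstm2 were lower with log2 fold changes of -2.20 ± 0.43 and -1.56 ± 0.37 (SE).

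Gsta3 was at 0 in 4 of 7 Cr(VI) libraries, reached at most 34.1 CPM there and lay between 40.6 and 77.4 CPM with folpet. It passed, but leaving out any 1 of 12 libraries (all but Cr(VI) replicate 6 and folpet replicate 2) raised its adjusted p above the threshold, to at most 0.0671. Its adjusted p was 0.0957 with the acinar share as a covariate and 0.341 without the libraries above 50% acinar counts. Against control, Gsta1 changed by 0.74 ± 0.36 with Cr(VI) (adjusted p = 0.233) and 3.12 ± 0.40 with folpet (adjusted p = 6.61e-07). The corresponding values of Gsta2 were 1.02 ± 0.46 with Cr(VI) (adjusted p = 0.194) and 4.27 ± 0.53 with folpet (adjusted p = 6.17e-07). In the list, 7 genes were above control with folpet (7.91% of all tested probes were) and none with Cr(VI).

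Glutathione supply followed, with 5 of 6 tested genes lower with Cr(VI) and a median of -1.72. Slc7a11, the cystine transporter subunit that feeds cysteine to glutathione synthesis, was at 0 in 3 Cr(VI) libraries and reached 31 CPM in the highest, against 278 to 737 CPM with folpet (median 498). It had a log2 fold change of -5.62 ± 1.12 (SE) and an adjusted p of 0.000867 in edgeR, and 0.149 in limma-voom. Gsr, glutathione reductase, had the smallest adjusted p of the named genes and ranged from 266 to 769 CPM with Cr(VI) (median 529) and from 1917 to 3438 with folpet (median 2982) (log2 fold change -2.41 ± 0.29 (SE), adjusted p = 8.24e-07). The lowest folpet library was above every Cr(VI) library, and Cr(VI) replicate 3 was the lowest of all at 266 CPM.

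Gclm and Gclc encode the modifier and catalytic subunits of glutamate-cysteine ligase, the rate-limiting enzyme of glutathione synthesis. Gclm ranged from 109.9 to 185 CPM with Cr(VI) (median 116) and from 219 to 359.8 with folpet (median 298), without overlap (log2 fold change -1.13 ± 0.23 (SE), adjusted p = 0.000561). Gclc was scarce, ranging from 8.26 to 17.1 CPM with Cr(VI) (median 10.1) and from 9.36 to 97.8 with folpet (median 56), and folpet replicate 2 lay within the Cr(VI) range at 9.36 CPM (log2 fold change -2.31 ± 0.52 (SE), adjusted p = 0.00196, and 0.0785 in limma-voom). Cth, which makes cysteine from cystathionine, had a smaller log2 fold change of -0.55 ± 0.15 (SE). Against control, Gsr changed by -0.20 ± 0.30 with Cr(VI) (adjusted p = 0.821) and 2.22 ± 0.32 with folpet (adjusted p = 5.75e-06), and Gclm by 0.21 ± 0.25 with Cr(VI) (adjusted p = 0.752) and 1.34 ± 0.26 with folpet (adjusted p = 0.000196).

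Enzymes that reduce quinones and carbonyls, oxidise aldehydes or open epoxides were lower with Cr(VI) in 8 of 11 tested genes, with a median of -1.70. Cbr3, a carbonyl reductase, ranged from 54.8 to 187 CPM with Cr(VI) (median 117) and from 2203 to 4359 with folpet (median 2912). The groups were separated by more than 10-fold at their closest libraries, and the fitted difference was 26.5-fold (log2 fold change -4.73 ± 0.58 (SE), adjusted p = 1.29e-06). Nqo1, the quinone reductase commonly used as a readout of NRF2, ranged from 90.8 to 192 CPM with Cr(VI) (median 137) and from 584 to 1109 with folpet (median 797) (log2 fold change -2.56 ± 0.39 (SE), adjusted p = 2.90e-05). Ephx1, microsomal epoxide hydrolase, ranged from 163 to 327 CPM with Cr(VI) (median 212) and from 1076 to 2247 with folpet (median 1592) (log2 fold change -2.84 ± 0.48 (SE), adjusted p = 0.000118). In neither gene did any library of 1 group fall within the range of the other.

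In the same 3 genes folpet passed against control and Cr(VI) did not. Cbr3 differed from control by 0.02 ± 0.55 with Cr(VI) (adjusted p = 1) and 4.75 ± 0.67 with folpet (adjusted p = 4.57e-06). Nqo1 differed by -0.00 ± 0.40 with Cr(VI) (adjusted p = 1) and 2.56 ± 0.44 with folpet (adjusted p = 8.43e-05), and Ephx1 by 0.02 ± 0.49 with Cr(VI) (adjusted p = 0.998) and 2.87 ± 0.55 with folpet (adjusted p = 0.000331). Aldh3a2, a fatty aldehyde dehydrogenase, was above control in both groups (0.60 ± 0.14 with Cr(VI) (adjusted p = 0.00546) and 1.34 ± 0.15 with folpet (adjusted p = 9.87e-09)) and was still lower with Cr(VI) than with folpet (log2 fold change -0.75 ± 0.13 (SE), adjusted p = 7.92e-05). Aldh1a1, retinal dehydrogenase, had a log2 fold change of -2.02 ± 0.38 (SE) between the groups, and the aldo-keto reductase Akr1b10 one of -1.70 ± 0.32 (SE). Akr1b8, a related reductase, was at 0 in 4 Cr(VI) libraries and reached 29.9 CPM in the highest, against 15.9 to 109.9 CPM with folpet. Its adjusted p was 0.0764 with the acinar share as a covariate and 0.286 without the libraries above 50% acinar counts. The adjusted p of 0.0383 rose to at most 0.0696 when 1 library was left out, and passed the threshold in 5 of the 14 such fits, those without Cr(VI) replicate 5 or folpet replicates 2, 4, 5 and 7.

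**Figure D2:**
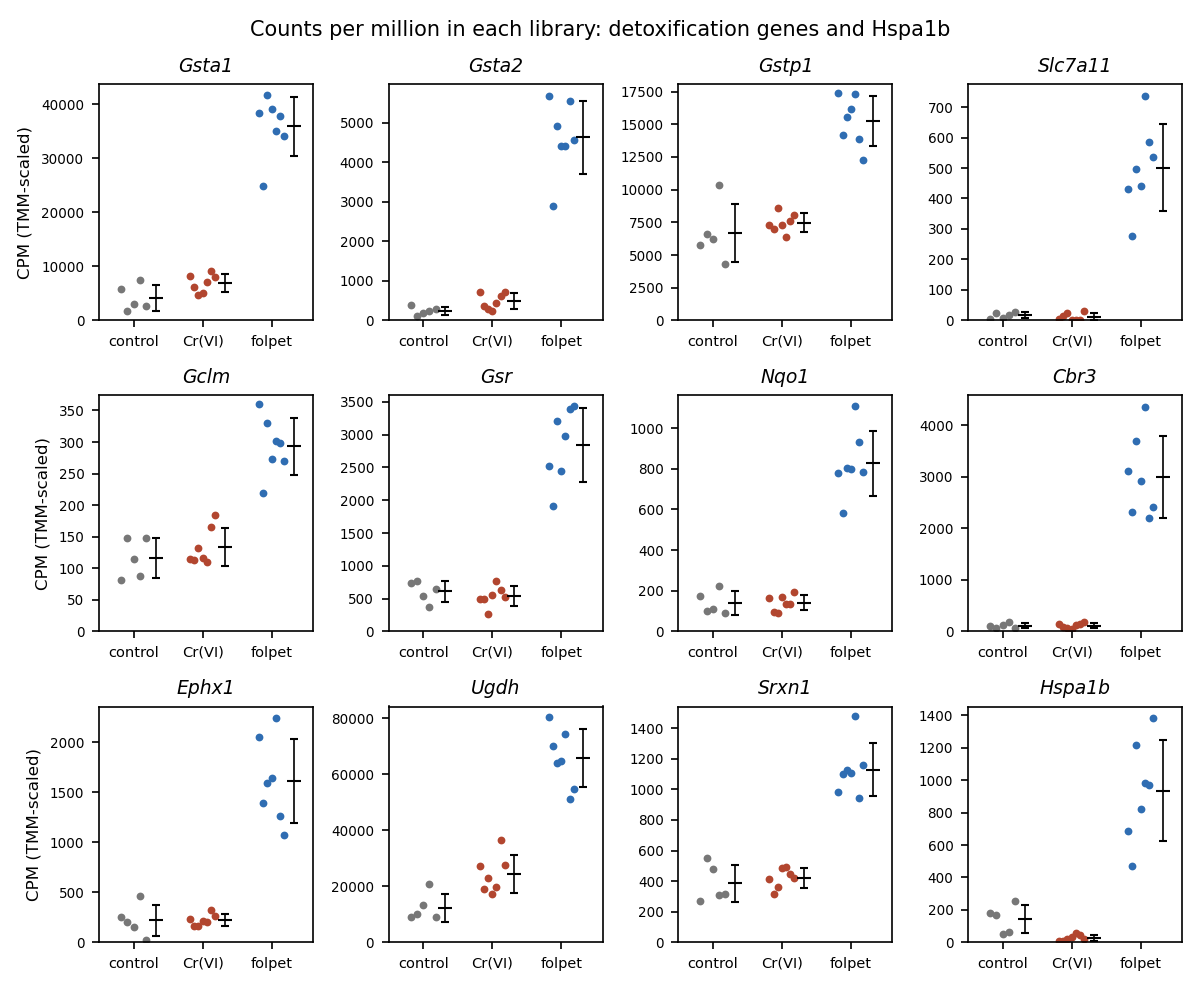
Each point is 1 library (5 control, 7 Cr(VI) 180 ppm, 7 folpet 16000 ppm), with its level in TMM-scaled CPM on the y axis from 0, and the bar beside the points gives the mean and SD. In all 12 genes every folpet library is above every Cr(VI) library. The Cr(VI) points lie near the control points in most genes. They tend to be higher in Gsta1, Gsta2 and Ugdh, of which only Ugdh passed against control, and most are lower in Hspa1b.

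Among genes for NADPH and UDP-sugar supply, 2 of 4 passed. Taldo1, transaldolase of the pentose phosphate pathway, ranged from 1210.1 to 1477 CPM with Cr(VI) (median 1388) and from 2567 to 3216 with folpet (median 3168) (log2 fold change -1.14 ± 0.16 (SE), adjusted p = 3.51e-06). Ugdh, which makes the UDP-glucuronate used in glucuronidation, was among the most abundant of these transcripts and ranged from 17212 to 36761 CPM with Cr(VI) (median 23102) and from 51361 to 80623 with folpet (median 64735) (log2 fold change -1.43 ± 0.26 (SE), adjusted p = 0.00027). Against control, Ugdh rose in both groups, by 0.97 ± 0.29 with Cr(VI) (adjusted p = 0.0368) and 2.40 ± 0.31 with folpet (adjusted p = 5.96e-07). The difference between the groups in Ugdh had an adjusted p of 0.0546 without the libraries above 50% acinar counts. G6pdx and Me1, which generate NADPH, did not pass, with log2 fold changes of -0.49 ± 0.24 and -0.45 ± 0.23 (SE).

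Enzymes for peroxide and superoxide were lower with Cr(VI) in 8 of 17 tested genes, with a median of -0.63. Srxn1, sulfiredoxin, ranged from 316 to 493 CPM with Cr(VI) (median 419) and from 945 to 1479.6 with folpet (median 1106) (log2 fold change -1.42 ± 0.28 (SE), adjusted p = 0.000818). Txnrd1, cytosolic thioredoxin reductase, ranged from 289 to 658 CPM with Cr(VI) (median 444) and from 843 to 1171 with folpet (median 889) (log2 fold change -1.06 ± 0.25 (SE), adjusted p = 0.00501). The groups did not overlap in either gene, and without the libraries above 50% acinar counts the adjusted p was 0.0725 for Srxn1 and 0.136 for Txnrd1. Prdx1, a peroxiredoxin, ranged from 2676 to 3737 CPM with Cr(VI) (median 3036) and from 4364 to 6594 with folpet (median 5769.9) (log2 fold change -0.90 ± 0.17 (SE), adjusted p = 0.000169). Sod1, the cytosolic superoxide dismutase, and Cat, catalase, had log2 fold changes of -0.83 ± 0.16 and -0.80 ± 0.15 (SE; adjusted p = 0.000245 and 0.000198), again without overlap. Gpx2, the gastrointestinal glutathione peroxidase, and mitochondrial Prdx3 were lower with log2 fold changes of -1.15 ± 0.25 and -0.63 ± 0.14 (SE).

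Hmox1, haem oxygenase, was listed at 0 in all 7 Cr(VI) libraries and lay between 0 and 9.34 CPM with folpet (median 4.27). It passed with an adjusted p of 0.0253, and with one of 0.0746 with the acinar share as a covariate and 0.193 without the libraries above 50% acinar counts. The metallothioneins Mt1 and Mt2 were scarce and did not pass, with mean levels of 17.6 and 2.9 CPM with Cr(VI) and 23.4 and 0.358 with folpet. None of the 4 tested NRF2 regulators passed, among them Nfe2l2, which encodes NRF2, with a log2 fold change of 0.09 ± 0.28, and Keap1 with one of -0.27 ± 0.15 (SE). Without the libraries above 50% acinar counts, the 5 lists from transferases to peroxide enzymes had 5, 4, 6, 1 and 4 lower genes, in the order described, and with the acinar share as a covariate they had 6, 4, 7, 2 and 7.

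The core of the antioxidant response element, TGACNNNGC on either strand, was searched in RefSeq promoters (GRCm38.p6), which run from 250 bases before to 50 bases after each annotated start. The core can hold the AP-1 motif TGACTCA. Of the 30 genes of these 5 lists that were lower with Cr(VI), 25 had a promoter in the table, and 7 of the 25 held the core (28%). Among all tested genes, 286 of 1807 held it (15.8%). Counted by promoters, of which a gene can have several, 12.4% of all 32851 held it, a share that is not set against those of genes. Among the named genes with a promoter, the core was held by 11 of 43 lower with Cr(VI), 4 of 19 higher and 2 of 19 that did not pass. A match describes the letters and not a site of binding. The stretches around the matches upstream of the start are shown for the lower genes that have one, 5′ to 3′ on the strand of the gene, with the matching letters in capitals, since they show how the flanks and the 3 free bases differ between genes whose levels differed in the same direction.
Gclm: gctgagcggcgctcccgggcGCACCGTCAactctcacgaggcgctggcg
Txnrd1: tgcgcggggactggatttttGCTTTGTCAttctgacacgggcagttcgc
Prdx1: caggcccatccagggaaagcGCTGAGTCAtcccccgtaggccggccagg
Sod1: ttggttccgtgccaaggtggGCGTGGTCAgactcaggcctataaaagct
Gsta3: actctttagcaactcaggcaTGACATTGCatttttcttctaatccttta
Ugdh: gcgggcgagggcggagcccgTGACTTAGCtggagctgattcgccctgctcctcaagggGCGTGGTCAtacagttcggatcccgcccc
In GRCm38.p6 these lie at chr3:122245403-122245451 for Gclm, chr10:82859094-82859142 for Txnrd1, chr4:116685446-116685494 for Prdx1, chr16:90220686-90220734 for Sod1 and chr1:21240444-21240492 for Gsta3, all on the plus strand, and at chr5:65435908-65435994 on the minus strand for Ugdh. Gsta3 holds the core on the strand of the gene and Gclm, Txnrd1, Prdx1 and Sod1 on the other strand, while Ugdh holds it once on each. The match of Srxn1 lies downstream of its start. Nqo1, Gsr, Cbr3 and the other genes of the 25 hold no match in these windows.

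Of the xenobiotic receptors and phase 1 enzymes, 6 of 26 tested genes were lower with Cr(VI) and none higher, with a median of -0.39, and each fit without 1 library called 4 or 5 of them. With the acinar share as a covariate 4 were lower and 1 higher, and without the libraries above 50% acinar counts 3 were lower and 1 higher. Ces1g, a carboxylesterase, ranged from 9.94 to 65.5 CPM with Cr(VI) (median 48) and from 992 to 1632 with folpet (median 1369.7) and differed 29.2-fold (log2 fold change -4.87 ± 0.66 (SE), adjusted p = 5.41e-06). The lowest folpet library was above 10 times the highest Cr(VI) library. Cyp2a5, a cytochrome P450 that oxidises coumarin and nicotine, was listed at 0 in all 7 Cr(VI) libraries and all 5 controls, and lay between 8.8 and 49.3 CPM in the 7 folpet libraries (median 24.8, adjusted p = 0.000359). Cyp2c29, another P450, was at 0 in 2 Cr(VI) libraries and reached 18.9 CPM, against 57.7 to 195 with folpet (log2 fold change -3.64 ± 0.89 (SE), adjusted p = 0.00652). Its adjusted p was 0.113 without the libraries above 50% acinar counts and 0.446 in limma-voom, and neither group passed against control (-2.15 ± 0.90 with Cr(VI) (adjusted p = 0.155) and 1.49 ± 0.89 with folpet (adjusted p = 0.32)).

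Nr1i3, which encodes the xenobiotic receptor CAR, was above control in both groups (0.87 ± 0.17 with Cr(VI) (adjusted p = 0.00104) and 1.52 ± 0.18 with folpet (adjusted p = 2.41e-08)) and lower with Cr(VI) than with folpet (log2 fold change -0.65 ± 0.15 (SE), adjusted p = 0.00357). That difference had an adjusted p of 0.0591 with the acinar share as a covariate and 0.0727 without the libraries above 50% acinar counts. The less abundant probe of Nr1i3 did not pass between the groups, with a log2 fold change of -0.37 ± 0.20 (SE, edgeR adjusted p = 0.333). The CAR target Cyp2b10 did not pass between the groups, with a log2 fold change of -0.52 ± 0.31 (SE). Por, the reductase that supplies electrons to P450 enzymes, did not pass either, at -0.16 (interval -0.50 to 0.18) for the approximate 95% interval. Against control, Por rose by 1.22 ± 0.19 with Cr(VI) (adjusted p = 5.68e-05) and 1.39 ± 0.19 with folpet (adjusted p = 6.72e-07).

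Phase 2 enzymes and transporters were lower with Cr(VI) in 7 of 19 tested genes and higher in none (median -0.76). Ugt2b35, a UDP-glucuronosyltransferase, ranged from 254 to 542 CPM with Cr(VI) (median 509.5) and from 1211 to 1986 with folpet (median 1371) (log2 fold change -1.67 ± 0.27 (SE), adjusted p = 6.06e-05). Here the Cr(VI) group lay below control and the folpet group did not pass (-0.95 ± 0.28 with Cr(VI) (adjusted p = 0.0383) and 0.72 ± 0.29 with folpet (adjusted p = 0.107)). Abcc3, an efflux transporter of glucuronides, ranged from 102 to 244 CPM with Cr(VI) (median 178) and from 264 to 442 with folpet (median 348) (log2 fold change -1.08 ± 0.23 (SE), adjusted p = 0.00142), and Ugt2b5 ranged from 3.43 to 60.4 CPM with Cr(VI) (median 33.3) and from 70.1 to 213 with folpet (median 100.5) (log2 fold change -1.85 ± 0.42 (SE), adjusted p = 0.00301). Neither overlapped, and without the libraries above 50% acinar counts the adjusted p was 0.106 for Abcc3 and 0.179 for Ugt2b5, with 2 of the 19 genes called there and 4 with the acinar share as a covariate.

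Heat shock and chaperone genes were lower with Cr(VI) in 5 of 16 tested members and higher in none, with a median of -0.57. Hspa1b, the inducible HSP70, ranged from 8 to 56.6 CPM with Cr(VI) (median 21.7) and from 469 to 1384 with folpet (median 971), a difference of 32.6-fold without overlap (log2 fold change -5.03 ± 0.79 (SE), adjusted p = 5.33e-05). Against control, Hspa1b changed by -2.31 ± 0.75 with Cr(VI) (adjusted p = 0.0585) and 2.71 ± 0.81 with folpet (adjusted p = 0.0206). The cochaperone Fkbp4 ranged from 732 to 1042 CPM with Cr(VI) (median 952) and from 1165 to 1669 with folpet (median 1374) (log2 fold change -0.60 ± 0.12 (SE), adjusted p = 0.000472), and there it was the Cr(VI) group that lay below control (-0.59 ± 0.13 with Cr(VI) (adjusted p = 0.00263) and 0.01 ± 0.13 with folpet (adjusted p = 0.983)). The HSP90 genes Hsp90aa1 and Hsp90ab1 had log2 fold changes of -0.68 ± 0.17 and -0.55 ± 0.13 (SE; adjusted p = 0.00542 and 0.00477). Hsph1, the HSP110 cochaperone, was lower by a log2 fold change of -1.80 ± 0.47 (SE). Neither HSP90 gene passed without the libraries above 50% acinar counts, where 2 of the 16 genes were called.

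The heat shock core GAANNTTC, which is its own reverse complement, occurs in 7.86% of all RefSeq promoters and in 6.32% of those of tested genes. Among the named genes lower with Cr(VI), 6 of the 43 with a promoter held it, Hspa1b among them. It was held by 3 of 19 named genes higher with Cr(VI) and by 2 of 19 that did not pass. These counts are of genes, which can have several promoters, and are not set against the shares of promoters. They do not set the lower genes apart from the higher ones. The stretch upstream of Hspa1b is shown because this gene had the largest fold change of the chaperones, with the match in capitals, 5′ to 3′ on the strand of the gene.
Hspa1b: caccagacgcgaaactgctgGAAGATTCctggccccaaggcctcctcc
It lies at chr17:34959315-34959362 on the minus strand of GRCm38.p6.

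Proteasome subunits were lower with Cr(VI) in 4 of 9 tested genes (median -0.30). Psmd14, the deubiquitinase of the proteasome lid, ranged from 51.3 to 144 CPM with Cr(VI) (median 122) and from 172 to 274 with folpet (median 209) (log2 fold change -0.98 ± 0.19 (SE), adjusted p = 0.000411), and Psmd8, another regulatory subunit, ranged from 577 to 921 CPM with Cr(VI) (median 838) and from 966 to 1582 with folpet (median 1406) (log2 fold change -0.73 ± 0.13 (SE), adjusted p = 0.000109). The groups did not overlap in either gene. Psmc4 and Psmd2 had smaller log2 fold changes of -0.45 ± 0.12 and -0.55 ± 0.15 (SE), and 3 of the 9 genes passed without the libraries above 50% acinar counts. With the acinar share as a covariate 2 of the 9 passed, without Psmc4 and Psmd2.

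Mitochondrial and citrate cycle genes were lower in 5 of 20 (median -0.25), and in 3 without folpet replicate 5, in 3 with the acinar share as a covariate and in 3 without the libraries above 50% acinar counts. Atp5a1, the alpha subunit of ATP synthase, ranged from 591 to 769 CPM with Cr(VI) (median 706) and from 874 to 1354 with folpet (median 1134), without overlap (log2 fold change -0.72 ± 0.14 (SE), adjusted p = 0.000487). Against control, Atp5a1 changed by -0.03 ± 0.16 with Cr(VI) (adjusted p = 0.957) and 0.69 ± 0.16 with folpet (adjusted p = 0.0019). The complex I genes Ndufa9 and Ndufb5 had log2 fold changes of -0.54 ± 0.13 and -0.58 ± 0.15 (SE), and Ndufb5 had an adjusted p of 0.121 with the acinar share as a covariate. Cycs, cytochrome c, passed with an adjusted p of 0.0248, but had one of 0.109 with the covariate and 0.277 without the libraries above 50% acinar counts. Of 13 glycolytic genes, 2 were lower with Cr(VI). Aldoa, fructose-bisphosphate aldolase, was the one with the larger difference, ranging from 201 to 359 CPM with Cr(VI) (median 286) and from 389.6 to 549 with folpet (median 444) (log2 fold change -0.74 ± 0.18 (SE), adjusted p = 0.00498), and it was above control in both groups (0.83 ± 0.20 with Cr(VI) (adjusted p = 0.00672) and 1.57 ± 0.21 with folpet (adjusted p = 4.59e-07)). Tpi1, triosephosphate isomerase, had a log2 fold change of -0.49 ± 0.15 (SE) and an adjusted p of 0.0259, which was 0.0538 with the covariate and 0.065 without the libraries above 50%. Acat2, a cytosolic thiolase, was the only one of 18 lipid and sterol synthesis genes called, ranging from 117 to 234 CPM with Cr(VI) (median 181) and from 376 to 537 with folpet (median 462) (log2 fold change -1.34 ± 0.21 (SE), adjusted p = 2.39e-05).

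Cell cycle and replication genes were called lower with Cr(VI) in 3 of 73, close to the share among all genes, with a median of -0.23. Melk, a mitotic kinase, ranged from 19.6 to 83.4 CPM with Cr(VI) (median 51) and from 73.6 to 169.7 with folpet (median 106) (adjusted p = 0.0076), and Rrm1, a ribonucleotide reductase subunit, had a log2 fold change of -0.60 ± 0.16 (SE). Rrm1 no longer passed without Cr(VI) replicate 3 or folpet replicate 1 (adjusted p up to 0.0522). The count of the list was between 1, without Cr(VI) replicate 3, and 6, without Cr(VI) replicate 5, when 1 library was left out. Without the libraries above 50% acinar counts none of the 73 passed. Mki67, a marker of dividing cells, did not pass, at -0.06 (interval -1.11 to 0.99). Cdkn1a, the cyclin-dependent kinase inhibitor p21, was at -0.38 (interval -0.72 to -0.05) with an adjusted p of 0.166, and none of 22 DNA repair genes passed. Of 18 p53 and growth arrest genes, Trp53, which encodes p53, was called lower (-0.63 ± 0.19 (SE), adjusted p = 0.024), and of 10 glucocorticoid-responsive genes Cebpb, a transcription factor, was (-0.51 ± 0.16, adjusted p = 0.0482). Trp53 did not pass without the libraries above 50% acinar counts (adjusted p = 0.143) or with the covariate (0.098), and Cebpb did not pass without those libraries (0.353). Dusp6, a phosphatase that switches off ERK, was the only called one of 16 immediate early genes and ranged from 164 to 255 CPM with Cr(VI) (median 228) and from 413 to 724 with folpet (median 481), without overlap (log2 fold change -1.27 ± 0.26 (SE), adjusted p = 0.000867).

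**Figure D3:**
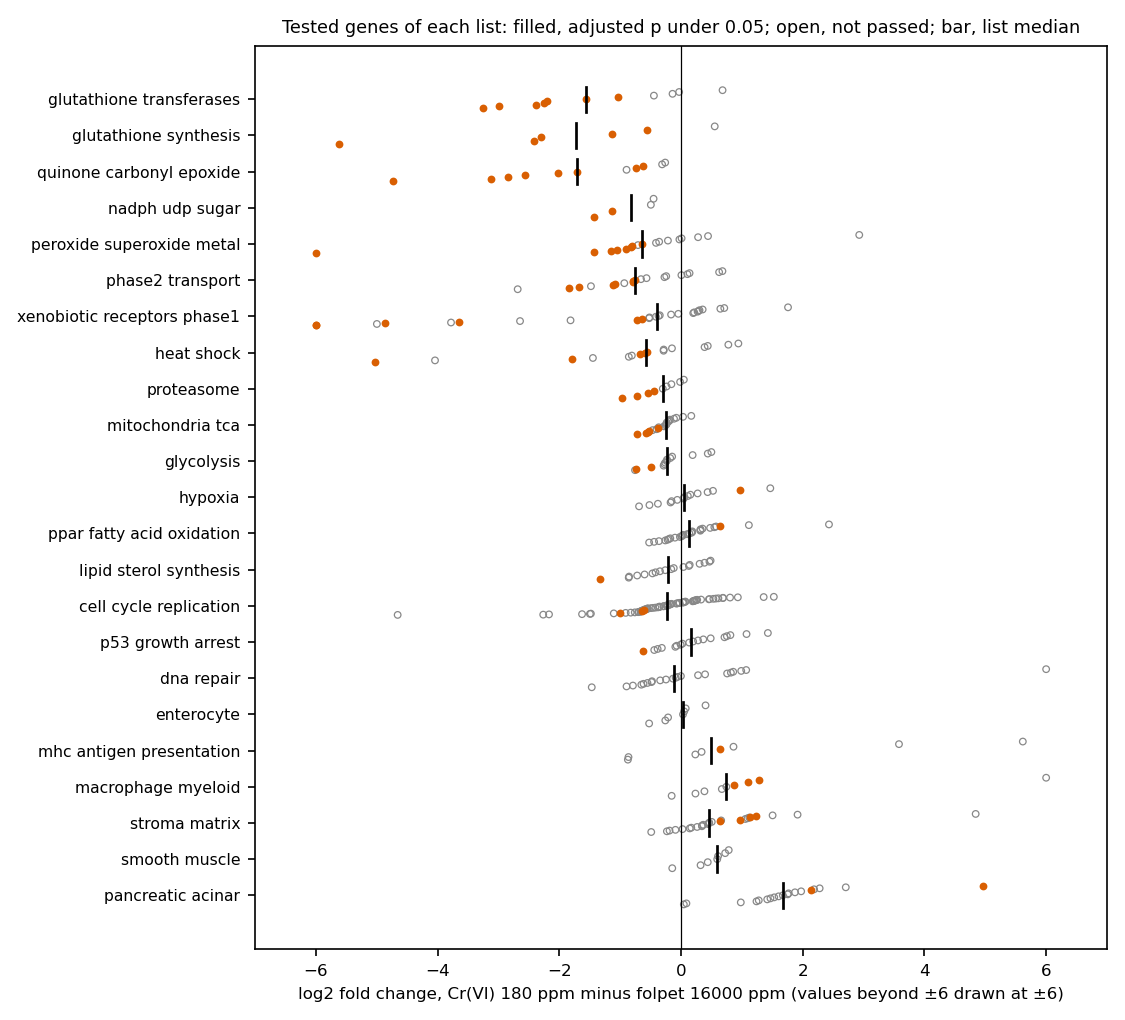
Each point is the log2 fold change of 1 tested gene (Cr(VI) 180 ppm minus folpet 16000 ppm, x axis, values beyond 6 drawn at 6) in the list named on the y axis, filled where the edgeR adjusted p was under 0.05, and the bar is the list's median. Filled points lie left of 0 in the upper rows, from glutathione transferases with a median of -1.56 to glycolysis, and right of 0 in the macrophage, matrix and acinar rows at the bottom.

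Transcripts higher with Cr(VI) than with folpet included genes of macrophages and of the matrix. In bulk tissue, fewer cells of a type and less RNA per cell cannot be told apart. Of 9 tested macrophage and myeloid genes, 3 were higher and none lower, with a median of 0.75, and 5 were higher without Cr(VI) replicate 5. C1qc, a chain of the complement starter C1q that resident macrophages make, ranged from 139 to 234 CPM with Cr(VI) (median 188) and from 39.2 to 104 with folpet (median 91.3), without overlap (log2 fold change 1.10 ± 0.19 (SE), adjusted p = 7.91e-05). C1qb, its partner chain, ranged from 163 to 329.9 CPM with Cr(VI) (median 235) and from 87.2 to 161 with folpet (median 127) (log2 fold change 0.87 ± 0.18 (SE), adjusted p = 0.000561). In both genes it was the folpet group that differed from control, C1qc by -0.06 ± 0.20 with Cr(VI) (adjusted p = 0.938) and -1.15 ± 0.20 with folpet (adjusted p = 4.78e-05) and C1qb by -0.23 ± 0.19 with Cr(VI) (adjusted p = 0.585) and -1.11 ± 0.19 with folpet (adjusted p = 2.94e-05).

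The third chain, C1qa, had a log2 fold change of 0.67 ± 0.23 (SE) and an adjusted p of 0.0571. Lyz2, the lysozyme of macrophages, ranged from 504 to 1609 CPM with Cr(VI) (median 638) and from 137 to 737 with folpet (median 225) (log2 fold change 1.29 ± 0.32 (SE), adjusted p = 0.0076), with folpet replicate 2 at 737 CPM inside the Cr(VI) range. Its adjusted p was 0.0696 with the acinar share as a covariate and 0.114 without the libraries above 50% acinar counts. Ctss, cathepsin S of antigen-presenting cells, ranged from 675 to 1158 CPM with Cr(VI) (median 916) and from 538 to 674 with folpet (median 572), without overlap (log2 fold change 0.65 ± 0.17 (SE), adjusted p = 0.00923). The summed level of the 11 macrophage markers in the table was 1396 to 3052 CPM with Cr(VI) and 648 to 1724 with folpet, with S100a8 and S100a9 at 0 in all libraries of both groups.

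Of 26 tested matrix and stromal genes, 4 were higher with Cr(VI) and none lower (median 0.46). Col4a2, a basement membrane collagen, ranged from 203 to 392 CPM with Cr(VI) (median 239.7) and from 88.4 to 144 with folpet (median 128), without overlap (log2 fold change 1.13 ± 0.18 (SE), adjusted p = 1.88e-05). Col6a3, a chain of the beaded-filament collagen, ranged from 96 to 183 CPM with Cr(VI) (median 110.2) and from 28.8 to 81 with folpet (median 50.6), with Cr(VI) replicate 3 the highest (log2 fold change 1.24 ± 0.24 (SE), adjusted p = 0.000411). Bgn, the proteoglycan biglycan, and Fbn1, fibrillin, had log2 fold changes of 0.64 ± 0.14 and 0.96 ± 0.27 (SE; adjusted p = 0.00223 and 0.0143). Against control, Col4a2 changed by 0.23 ± 0.19 with Cr(VI) (adjusted p = 0.598) and -0.90 ± 0.19 with folpet (adjusted p = 0.000751) and Col6a3 by -0.46 ± 0.26 with Cr(VI) (adjusted p = 0.326) and -1.70 ± 0.26 with folpet (adjusted p = 4.78e-06). Without the libraries above 50% acinar counts, 2 of the 26 passed, without Bgn and Fbn1. With library totals in place of TMM scaling, none of these macrophage and matrix genes passed, though all kept a positive log2 fold change. Lower calls lost with library totals included Fkbp4, Hsp90aa1, Hsp90ab1, Psmc4, Psmd2, Psmd8, Ndufa9, Ndufb5, Cycs, Tpi1, Nr1i3, Melk and Rrm1. Each of these genes kept a negative log2 fold change. The lower calls of Hspa1b, Psmd14, Atp5a1 and Aldoa were kept.

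Vegfa, the vascular growth factor, was the only called one of 15 hypoxia genes and ranged from 125 to 210.4 CPM with Cr(VI) (median 183) and from 55.4 to 103 with folpet (median 94), without overlap (log2 fold change 0.96 ± 0.24 (SE), adjusted p = 0.00658). Its other probe passed as well, with a log2 fold change of 1.20 ± 0.37 (SE). Dio1, the deiodinase that activates thyroid hormone, had a fold of 4.44 and ranged from 67.9 to 215 CPM with Cr(VI) (median 176) and from 15.9 to 59.2 with folpet (median 31.3), without overlap (log2 fold change 2.15 ± 0.40 (SE), adjusted p = 0.000256). Its less abundant probe had a log2 fold change of 3.19 ± 1.17 (SE) and did not pass. Relb, an NF-kappaB subunit, ranged from 235 to 542 CPM with Cr(VI) (median 301) and from 106 to 259.9 with folpet (median 164), with folpet replicate 2 at 259.9 CPM above the lowest Cr(VI) library (log2 fold change 1.04 ± 0.20 (SE), adjusted p = 0.000359).

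Slc27a2, a fatty acid transporter and acyl-CoA synthetase, ranged from 792 to 1258 CPM with Cr(VI) (median 1112) and from 486 to 792 with folpet (median 653), without overlap (log2 fold change 0.64 ± 0.15 (SE), adjusted p = 0.00406). Ccl24, an eosinophil-attracting chemokine, ranged from 48.3 to 175 CPM with Cr(VI) (median 79.1) and from 18.3 to 32 with folpet (median 23.8), also without overlap (log2 fold change 1.83 ± 0.42 (SE), adjusted p = 0.00297). Neither group passed against control in Ccl24 (1.15 ± 0.46 with Cr(VI) (adjusted p = 0.13) and -0.67 ± 0.45 with folpet (adjusted p = 0.388)), and the fitted difference between the 2 exposures was larger than either of these. The tests of Vegfa, Dio1, Relb, Slc27a2 and Ccl24 passed without the libraries above 50% acinar counts, and with library totals alone only Dio1 among them passed.

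**Figure D4:**
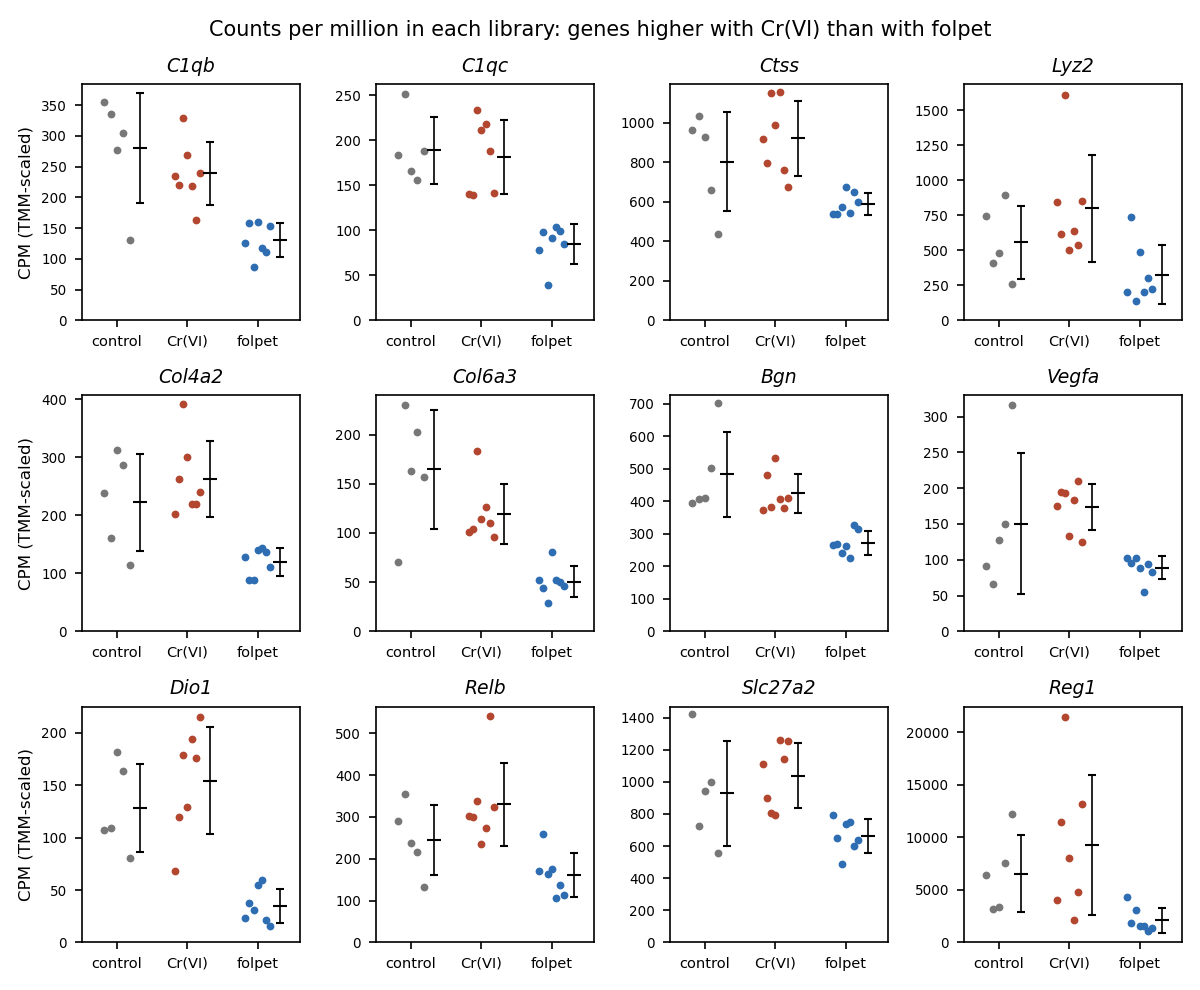
Each point is 1 library (5 control, 7 Cr(VI) 180 ppm, 7 folpet 16000 ppm), with its level in TMM-scaled CPM on the y axis from 0, and the bar beside the points gives the mean and SD. In 9 of the 12 genes every Cr(VI) library is above every folpet library, and in Lyz2, Relb and Reg1 the 2 groups overlap. The Cr(VI) points mostly span the range of the controls.

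Acinar transcripts of the pancreas, which lies against the duodenum, led the higher genes by size. All 19 tested acinar genes had a positive log2 fold change (median 1.67), and 2 of them, Reg1 and Prss1, were called. Reg1 ranged from 2113 to 21417 CPM with Cr(VI) (median 7989) and from 1072 to 4337 with folpet (median 1582) (log2 fold change 2.13 ± 0.47 (SE), adjusted p = 0.00279), and Gm5771, a trypsinogen-like gene outside the list, ranged from 47.5 to 9194 CPM with Cr(VI) (median 4915) and from 38.3 to 163 with folpet (median 66.2) (log2 fold change 5.82 ± 1.40 (SE), adjusted p = 0.00573). In Gm5771 Cr(VI) replicate 5, the library with the smallest acinar share, lay among the folpet libraries at 47.5 CPM. With the acinar share as a covariate, the log2 fold change was 0.84 for Reg1 (adjusted p = 0.0519) and 2.29 for Gm5771 (adjusted p = 0.148). Without the libraries above 50%, it was 0.79 for Reg1 (adjusted p = 0.354) and 3.55 for Gm5771 (adjusted p = 0.128). Prss1, trypsinogen, ranged from 106 to 17962 CPM with Cr(VI) (median 10102) and from 109 to 692 with folpet (median 280.2), and its adjusted p of 0.0414 exceeded 0.05 in 11 of the 14 fits that left out 1 library, all but those without Cr(VI) replicates 1, 5 and 6. The log2 fold change of Prss1 was 1.35 with the acinar share as a covariate (adjusted p = 0.518) and 3.02 without the libraries above 50% (adjusted p = 0.2665).

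Some further transcripts were higher with Cr(VI) but no longer passed when 1 library was left out. Glul, glutamine synthetase, ranged from 153 to 512 CPM with Cr(VI) (median 279) and from 72.6 to 148 with folpet (median 112), without overlap (log2 fold change 1.50 ± 0.41 (SE), adjusted p = 0.0179), with an adjusted p of 0.0524 without Cr(VI) replicate 7. With the acinar share as a covariate the log2 fold change of Glul was 0.61 (adjusted p = 0.325), and without the libraries above 50% acinar counts it was 0.97 (adjusted p = 0.193). St3gal2, a sialyltransferase, ranged from 10.7 to 49.2 CPM with Cr(VI) (median 20) and from 2.62 to 10.5 with folpet (median 8.55) (log2 fold change 1.77 ± 0.49 (SE), adjusted p = 0.0142), with an adjusted p of 0.0545 without Cr(VI) replicate 6. F2r, the thrombin receptor, Slc28a2, a nucleoside transporter, and Brwd3 passed with adjusted p of 0.0338, 0.0445 and 0.038, which leaving out 1 library raised to at most 0.0749, 0.0998 and 0.0887. The probe called Brwd3 here is labelled Gm10452 in the deposited counts, and the name Brwd3 comes from a RefSeq synonym. F2r no longer passed without Cr(VI) replicate 3 or 4 or folpet replicate 3, 4 or 6. Without the libraries above 50% acinar counts the adjusted p was 0.158 for F2r and 0.0731 for Brwd3, and F2r did not pass with the covariate either. Slc28a2 no longer passed without Cr(VI) replicate 1, 3, 6 or 7 or folpet replicate 1, 2, 3, 4, 5 or 7. Brwd3 no longer passed without Cr(VI) replicate 1, 3, 6 or 7 or folpet replicate 1, 2, 3, 4 or 7.

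Many genes that moved from control with both exposures did not pass between them, and an adjusted p above the threshold does not show that the levels were alike. Approximate 95% intervals of the log2 difference of Cr(VI) minus folpet are therefore given. Creb3l3, a liver and gut transcription factor of lipid metabolism, ranged from 3425 to 4646 CPM with Cr(VI) (median 4264) and from 2821 to 4034 with folpet (median 3433), against 982 to 2408 CPM in controls. All 14 exposed libraries were above all 5 controls, and the difference between the exposures was 0.32 (interval 0.02 to 0.62), with an adjusted p of 0.211. Apoa1, the main apolipoprotein of HDL, differed by 0.40 (interval -0.01 to 0.81). Eci1, an enzyme of fatty acid oxidation, differed by 0.01 (interval -0.36 to 0.38), with medians of 341 CPM with Cr(VI), 352 with folpet and 155 in controls.

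Ppara, the fatty acid sensing receptor, passed against control with Cr(VI) and not with folpet (0.86 ± 0.20 with Cr(VI) (adjusted p = 0.00406) and 0.38 ± 0.20 with folpet (adjusted p = 0.22)), but the difference between the exposures, 0.48 (interval 0.12 to 0.84), did not pass (adjusted p = 0.0975), though it did with DESeq2's size factors (0.042), DESeq2's own test (0.0187) and the 2 compared groups alone in the fit (0.0394). Of 27 fatty acid oxidation and PPAR genes, Slc27a2 alone passed between the exposures, whereas 5 were higher in DESeq2's own test, and 4 were higher and 2 lower with the 2 compared groups alone in the fit. The hypoxia-responsive genes Bnip3 and Car9 differed by -0.38 (interval -1.09 to 0.33) and 0.11 (interval -0.32 to 0.54). Bnip3 was between 0 and 49.6 CPM in controls, between 33.3 and 124 with Cr(VI) and between 76 and 138 with folpet. Pfkl, phosphofructokinase, differed by -0.18 (interval -0.77 to 0.42), and Klf4, a transcription factor of differentiated villus cells, by -0.21 (interval -0.65 to 0.22).

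Falls from control were likewise not told apart in several genes. Cd74, the chaperone of MHC class II molecules, ranged from 2666 to 5522 CPM with Cr(VI) (median 4509.7) and from 2016 to 5743 with folpet (median 2699.7), against 8369.7 to 25585 CPM in controls. Every exposed library was below every control, and the 2 exposures differed by 0.34 (interval -0.21 to 0.88). Gzma, a granzyme of cytotoxic lymphocytes, differed by -0.56 (interval -1.50 to 0.38), and no T, NK, B or mast cell gene of the lists passed. Flna, filamin A, and Acta2, smooth muscle actin, differed by 0.61 (interval 0.04 to 1.18) and 0.32 (interval -0.08 to 0.72), and none of 7 smooth muscle genes passed between the exposures (median 0.60). Against control, Acta2 passed with folpet (-0.98 ± 0.21, edgeR adjusted p = 0.000951) and not with Cr(VI) (-0.66 ± 0.21, edgeR adjusted p = 0.0549). Of the 7 smooth muscle genes, 4 were below control with folpet and 1 with Cr(VI). Rises from control, in contrast, were seen in the clock output gene Dbp (1.90 ± 0.31 with Cr(VI) and 1.22 ± 0.31 with folpet, SE). Fos, an immediate early gene, rose as well (0.92 ± 0.23 with Cr(VI) and 0.80 ± 0.23 with folpet, SE). Between the exposures Dbp differed by 0.69 (interval 0.14 to 1.24) and Fos by 0.12 (interval -0.30 to 0.54). The replication helicase subunit Mcm7 differed between the exposures by -0.66 (interval -1.16 to -0.15). The intervals of Creb3l3, Ppara, Flna, Dbp, Mcm7 and Cdkn1a do not hold 0, and their adjusted p over all 2541 probes lay between 0.0975 and 0.211. Of the genes given here as not passing, Creb3l3 and Dbp passed in DESeq2's own test (adjusted p = 0.0382 and 0.0264), and Creb3l3, Apoa1, Cdkn1a and Me1 passed with the 2 compared groups alone in the fit (0.0247, 0.0397, 0.0392 and 0.0157). Of 18 genes of endoplasmic reticulum stress, Sel1l, an adaptor of protein degradation there, was higher (log2 fold change 0.93 ± 0.26 (SE), adjusted p = 0.0136) and Atf4, a stress transcription factor, was lower (-0.55 ± 0.18, adjusted p = 0.0399). Neither passed with the acinar share as a covariate (adjusted p = 0.437 for Sel1l and 0.248 for Atf4) or without the libraries above 50% acinar counts (0.356 and 0.128), and Sel1l did not pass without Cr(VI) replicate 3 either. Hyou1 and Nucb2 of the same list differed by -0.11 (interval -0.42 to 0.20) and 0.92 (interval -0.25 to 2.09).

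**Figure D5:**
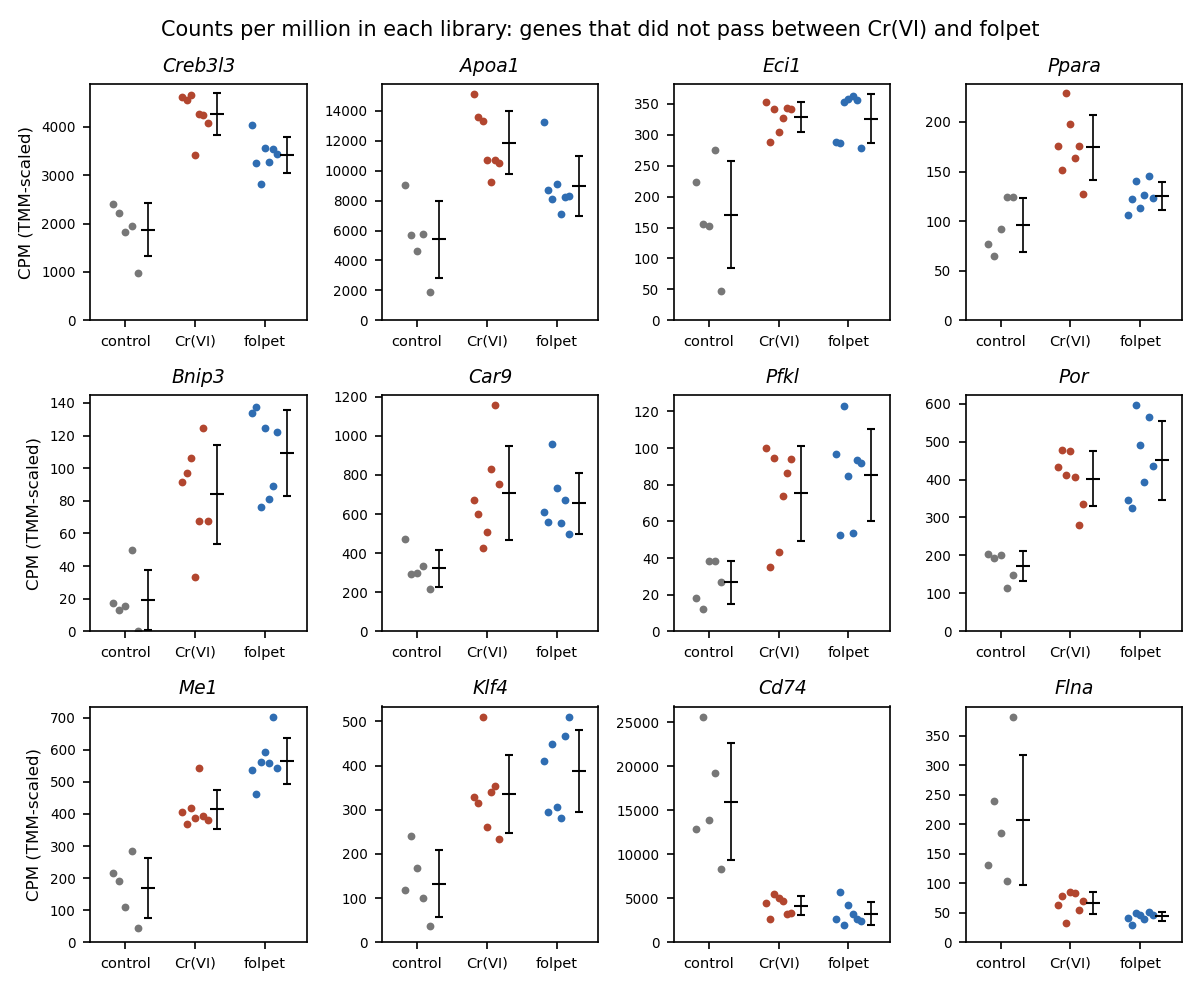
Each point is 1 library (5 control, 7 Cr(VI) 180 ppm, 7 folpet 16000 ppm), with its level in TMM-scaled CPM on the y axis from 0, and the bar beside the points gives the mean and SD. The Cr(VI) and folpet points overlap in all 12 genes. Both lie above the controls in Creb3l3, Eci1, Por and Me1 and below them in Cd74 and Flna.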

How the data were processed

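Whole-number counts per probe, deposited by the authors for 3045 probes of 2756 symbols in 40 libraries, were used as they stand; 28.5% of values were 0 and 1.01% of the values above 0 were 1 to 5, so low counts may have been removed before deposit. Per the submitters' processing notes, bcl2fastq 2.17.1.14, Bowtie and the build mm9 were used, in roles not given there; no positions of probes were used. Columns were matched to samples by title, and replicate numbers follow accession order.

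Probes were filtered with filterByExpr (minimum count 10, minimum total count 15) and TMM-scaled, and edgeR 4.0.16 (R 4.3.3) fitted 1 mean per group to all 40 libraries by robust quasi-likelihood, with 34 residual degrees of freedom; p-values were Benjamini-Hochberg adjusted over 2541 probes and a gene passed, or was called, under 0.05. SEs were derived from the fold change and the F statistic, and approximate 95% intervals use them with 34 degrees of freedom. Library measures were compared by 2-sided exact permutation (scipy 1.17.1). On counts simulated for this comparison with 200 changed probes of 2541, 33.8% of the 2-fold and 62.1% of the 4-fold changes were called by edgeR, and 6.04% of calls were false. PCR copies are not independent molecules, and depth limits scarce genes.

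Named genes are the 10 called probes with the largest rise and the 10 with the largest fall among those with a mean of at least 20 CPM in the higher group, up to 4 called members per list by adjusted p, and a panel named whatever its result, of which Tfrc was not analysed here; other genes are named from their list, and a gene that the rule names is not reported here. For 2 probes, the more abundant one is given. The less abundant probes of Acat2, Ccna2, Hsp90aa1 and Sel1l did not pass, with log2 fold changes of -0.66, -0.36, -0.28 and 0.65. That of Aldh3a2, with means of 6.8 CPM with Cr(VI) and 2.65 with folpet, did not pass and had the opposite sign (1.35 ± 1.69, SE). The members compared and the 39 gene lists were chosen with earlier results of these data known. Symbols were matched to RefSeq (2601 by symbol, 95 by synonym, 60 not). Alternatives were other scalings, filters, tools (DESeq2 1.42.0, limma 3.58.1 with voom), sample sets, the acinar share as a covariate, and leaving out each library.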

Additional observations from a re-analysis of the deposited data

Results flagged for a closer look

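Of 196 sets of 7 libraries examined, most of them those of the named genes, 20 had 1 library standing apart by Dixon's criterion at the 95% level, where chance gives about 9.8. Values are log2 CPM with a prior count of 2. In the detoxification genes, Gsta1 and Gsta2 were low in folpet replicate 2, at 14.6 and 11.5, Gsr was low in Cr(VI) replicate 3 at 8.06, and Ces1g was low in Cr(VI) replicate 5 at 3.37. Me1 was high in Cr(VI) replicate 5 at 9.09.

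Proteasome genes were low in single Cr(VI) libraries, Psmc4 at 8.01 and Psmd14 at 5.69 in replicate 6 and Psmd8 at 9.17 in replicate 7. Ccna2, a cyclin of S phase, was low in Cr(VI) replicate 6 at 6.24, while Relb was high there at 9.08. Among matrix and macrophage genes, Col6a3 was high in Cr(VI) replicate 3 at 7.52, Fbn1 was high in folpet replicate 1 at 6.30, and C1qc was low in folpet replicate 3 at 5.31. Vegfa and Slc28a2 were low in folpet replicate 5, at 5.80 and -0.30.

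Apoa1 was high in folpet replicate 1 at 13.7, and Creb3l3 was low in Cr(VI) replicate 4 at 11.7. Cdkn1a was high at 8.64 and Brwd3 low at 2.45 in Cr(VI) replicate 2. Prss1 was low in Cr(VI) replicate 5 at 6.73, the library with the smallest acinar share of the Cr(VI) group.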

How the results depend on the processing

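The 186 calls became 66 with library totals alone (4 higher, 62 lower) and 111 without the libraries above 50% acinar counts (32 higher, 79 lower), where 7 of the 40 libraries were left out. Higher calls were 77 with DESeq2's size factors, 93 with DESeq2's test and 77 with the 2 compared groups alone in the fit. Leaving out each library gave 150 to 186 calls, 36 to 55 higher and 110 to 135 lower. No direction reversed among the 74 called named genes under the 26 alternatives, 24 kept their call under all that could be run, and 58 kept it in all 14 fits without 1 library; library totals ended 39 of the 74 calls, the acinar covariate 18 and the exclusion of acinar-rich libraries 31. Removing the acinar probes while keeping the covariate, chosen after seeing the data, gave 168 calls. Calls of Atf4, Ccna2, Cebpb, Cycs, Tpi1 and Trp53 ended in 4 to 11 of the fits without 1 library. The difference in acinar share was 22.0 to 34.9 percentage points without 1 library, with an adjusted exact permutation p of 0.0035 without Cr(VI) replicate 5. No paired analysis was possible because the labels carry no replicate numbers. The causes of these changes were not tested. Depth limits scarce genes such as Hmox1, Cyp2a5, Mt2 and Gclc.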

Other observations

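Gene families grouped by symbol after their values had been seen carry no test as groups. Histone genes were lower with Cr(VI) than with folpet in 6 of 18 tested members (median -0.49), among them H3c8 with a log2 fold change of -0.77 ± 0.18 (SE) and H2bc14 with one of -0.70 ± 0.19. In this family 6 genes were below control with Cr(VI) and 1 with folpet. Leaving out 1 library gave between 3 and 7 lower histone genes, the acinar share as a covariate gave 2, and leaving out the libraries above 50% acinar counts gave 1. Of the 3 measured subunits of the CCT chaperonin, which folds actin and tubulin, Tcp1 and Cct6a were lower, with log2 fold changes of -0.91 ± 0.16 and -0.42 ± 0.11 (SE). All 11 tested complex I genes had log2 fold changes below 0, and 3 of them passed.

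Some called genes outside the lists, also picked after their values were seen, had adjusted p as small as those of the detoxification genes. Osgin1, an oxidative stress induced growth inhibitor, had a log2 fold change of -1.93 ± 0.24 (SE). Pgrmc1, a haem-binding membrane protein, had one of -1.32 ± 0.19 (SE), and the nucleoside diphosphate kinase Nme1 one of -1.20 ± 0.19 (SE). On the other side, Erbb3, a receptor of the EGF receptor family, was higher with Cr(VI) by 0.88 ± 0.15 (SE), and the lipid carrier Apoe by 0.74 ± 0.16 (SE). Both probes of the adhesion molecule Ceacam1 were higher, with log2 fold changes of 1.10 ± 0.22 and 1.66 ± 0.39 (SE).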
